A study of Sus scrofa with 15 samples.

Results

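Bile acid synthesis enzymes turn cholesterol into the conjugated bile acids that the liver secretes. Of 8 such enzymes (CYP7A1, CYP8B1, CYP27A1, CYP7B1, HSD3B7, AKR1D1, SLC27A5 and BAAT), taken by pig gene symbol, 7 were paired with a row among the 31908 genes of the count table. CYP8B1, the sterol 12α-hydroxylase, was not paired with a gene identifier in the table of names used here and was therefore not measured. The remaining 7 genes were described in liver RNA of saline-treated (CON) and lipopolysaccharide-treated (LPS) piglets, and 6 of them had enough reads to be tested.

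The study followed 12 male piglets of the Duroc x Large White x Landrace cross in the growing stage, whose age in days was not given. The 6 piglets of the LPS group received 80 μg/kg of LPS, an outer membrane component of Gram-negative bacteria, into the peritoneal cavity, and the 6 piglets of the CON group received an equal dose of sterile saline. Livers were taken 4 h later, so a single dose and a single time point were sampled. The values below are from 3 CON and 3 LPS input libraries, that is, polyadenylated and fragmented liver RNA kept aside before the m6A antibody was added and prepared with a directional kit. The labels do not tie a library to a piglet or say whether RNA of several piglets was pooled, so the p-values measure the spread between these libraries.

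In hepatocytes the classic route begins with CYP7A1, the cholesterol 7α-hydroxylase and rate-limiting enzyme of the pathway, and CYP8B1 then directs part of the flow toward cholic acid. The alternative route begins with CYP27A1, a mitochondrial sterol 27-hydroxylase, followed by CYP7B1, the oxysterol 7α-hydroxylase. Both routes share the ring-modifying enzymes HSD3B7 and AKR1D1, and SLC27A5 and BAAT finally join the bile acid to coenzyme A and to glycine or taurine. Transcription of CYP7A1 is known to be restrained by bile acids through the nuclear receptors NR1H4 (FXR) and NR0B2 (SHP).

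The CON libraries held 5927348 to 10351491 counts each and the LPS libraries 4348478 to 19967417. Values are given as CPM, that is, read counts scaled to a common library size with the TMM factors of edgeR, which were 0.735 in LPS replicate 3 and 0.979 to 1.11 in the other libraries. LPS replicate 2 was the LPS library nearest to the CON libraries. Its log2 CPM correlated with the CON libraries at 0.923 to 0.945, a range that reached that among CON libraries (0.943 to 0.953), whereas LPS replicates 1 and 3 correlated with the CON libraries at 0.837 to 0.899. Within the LPS group, replicate 1 correlated at 0.907 with replicate 2 and 0.903 with replicate 3, and replicates 2 and 3 at 0.852. Replicate 2 was thus as close to replicate 1 as replicate 3 was. The enzymes' fold changes, ratios and values relative to hepatocyte markers were also computed without LPS replicate 2. It was picked from these data as the LPS library nearest to the CON libraries, which favours larger differences and more calls. Values without it are therefore a description only. Of 20 hepatocyte markers 19 were measured and all were tested, and their summed level was 82097 to 106027 CPM in the CON libraries and 75657 to 148859 CPM in the LPS libraries, so the tissue label was met in each library.

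Over all 6 libraries, CYP7A1 RNA was far lower in the LPS group, AKR1D1 RNA was lower and HSD3B7 RNA was higher, but none of the 6 tested enzymes passed the threshold (Benjamini-Hochberg adjusted p below 0.05 over all 12774 tested genes, with a fold change above 1.5) in edgeR's quasi-likelihood test. CYP7A1 came closest, with an adjusted p of 0.0668. In the same test 0% of all tested genes passed as lower and 0.0548% (7 genes) passed as higher. At an unadjusted p below 0.05, 2 of the 6 enzymes were lower and 1 was higher, against 809 lower genes (6.33%) and 790 higher genes (6.18%) over the whole table. DESeq2 on the same 6 libraries called 0.951% of genes as lower (141 genes) and 1.85% as higher (275 genes), and CYP7A1 was among the lower genes. Every LPS library lay below every CON library for 3 of the 6 enzymes (CYP7A1, CYP27A1 and AKR1D1), against 9.8% of all tested genes, and above every CON library for 1 of them (HSD3B7), against 6.52%. The median log2 fold change of the 6 enzymes was -0.61, beside 0.01 over all tested genes.

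**Figure D1:**
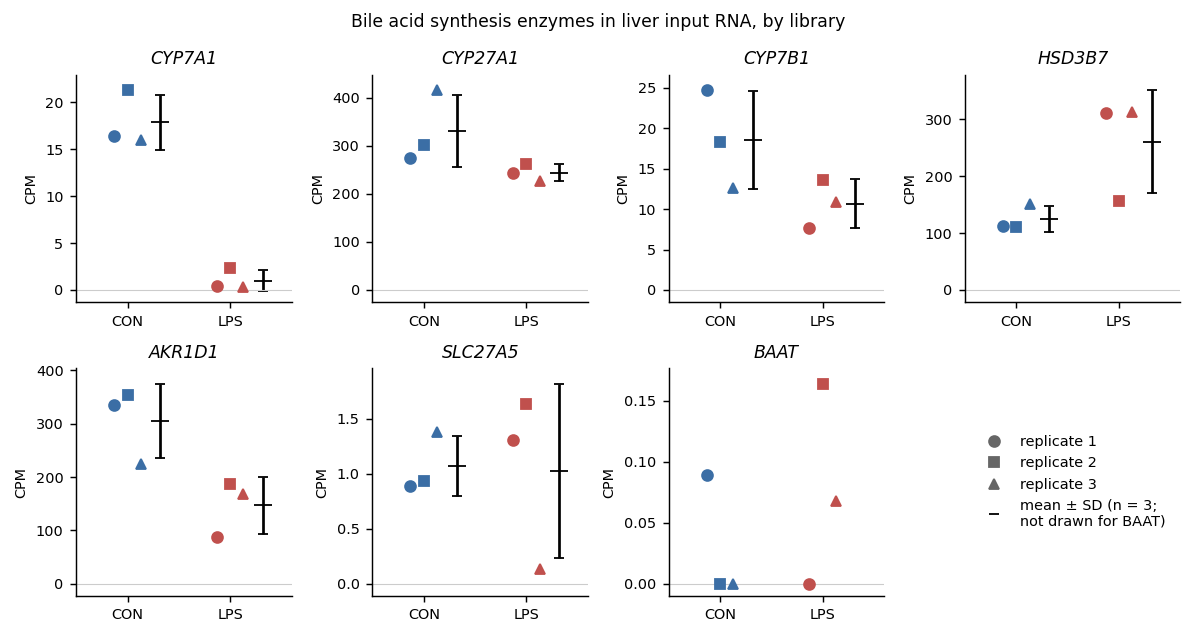
TMM-scaled CPM of the 7 measured bile acid synthesis enzymes in the 3 CON (blue) and 3 LPS (red) libraries, 1 panel per gene with its own linear axis, with the group mean and SD (n = 3) as bars. The LPS libraries lie at 0.273 to 2.29 CPM for CYP7A1, below the CON libraries at 16.0 to 21.2 CPM, while HSD3B7 is at 155.9 to 313.0 CPM in LPS libraries and 111.4 to 150.8 CPM in CON libraries.

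CYP7A1 (ENSSSCG00000006238, chromosome 4, 74342856 to 74372638, plus strand, 10 merged exons over 3482 bases) opens the classic route. Coordinates here and below are those of the deposited table, whose pig genome build was not named in the sources used here. Values are always listed in the order of replicates 1, 2 and 3. CYP7A1 was counted 183, 136 and 162 times in the CON libraries, and 2, 14 and 4 times in the LPS libraries. These counts correspond to 16.4, 21.2 and 16.0 CPM (17.9 ± 2.93, SD, n = 3) in the CON group and 0.436, 2.29 and 0.273 CPM (1.00 ± 1.12, SD, n = 3) in the LPS group. The groups did not overlap, and the lowest CON library was 6.99-fold above the highest LPS library. Within the LPS group, replicate 2 had the highest value.

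The fitted log2 fold change of CYP7A1 was -4.25 (SE 0.68, 95% interval -5.77 to -2.72), a level 19.0-fold lower in the LPS group, with an unadjusted p of 0.000109 in the edgeR quasi-likelihood test. It was the second lowest log2 fold change of the 12774 tested genes, and the p-value stood at rank 20. CYP7A1 passed the filter on low counts through its counts in the CON libraries, so these ranks are a description only. The exact 95% intervals of the LPS values, which cover counting error only, were 0.0528 to 1.58 CPM, 1.25 to 3.84 CPM and 0.0744 to 0.699 CPM in replicates 1, 2 and 3, so the interval of replicate 2 did not meet that of replicate 3. Without LPS replicate 2 the log2 fold change was -5.73 (SE 0.58) with an edgeR adjusted p of 0.000569, and CYP7A1 then passed as lower, as 3.45% of all genes tested in that fit did (470 genes). Without LPS replicate 3 it was -3.60 with an adjusted p of 0.0218, and DESeq2 on all 6 libraries gave -4.21 with an adjusted p of 5.13e-08. With the replicate number as a block, the edgeR adjusted p was 0.00937 for a log2 fold change of -4.54. Leaving out LPS replicate 1 or any single CON library gave adjusted p-values of 0.234 to 0.563. The direction was the same under every alternative that gave a value, whereas the call depended on the test, the filter and the library left out.

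CYP27A1 and CYP7B1 make up the alternative route, and their differences were small beside that of CYP7A1. CYP27A1 (ENSSSCG00000016199, chromosome 15, 120809959 to 120852193, plus strand, 2738 bases) was at 274.1, 302.0 and 414.6 CPM in the CON libraries (330.2 ± 74.4, SD, n = 3) and at 242.9, 261.3 and 226.3 CPM in the LPS libraries (243.5 ± 17.5, SD, n = 3). The LPS values lay just below the CON values without overlap, and CON replicate 3 was the highest of all. The log2 fold change was -0.44 (SE 0.31, 95% interval -1.12 to 0.24) with an edgeR adjusted p of 0.593. It was -0.49, with an adjusted p of 0.437, when LPS replicate 2 was left out.

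CYP7B1 (ENSSSCG00000022092, chromosome 4, 69616035 to 69806496, plus strand, 2336 bases) lies on the same chromosome as CYP7A1, with 4536359 bases between them. Its level was 24.7, 18.3 and 12.6 CPM in the CON libraries (18.5 ± 6.06, SD, n = 3) and 7.63, 13.6 and 10.9 CPM in the LPS libraries (10.7 ± 2.98, SD, n = 3). LPS replicate 2 was above CON replicate 3, so the groups overlapped. The log2 fold change was -0.79 (SE 0.38, 95% interval -1.63 to 0.06) with an edgeR adjusted p of 0.435. With LPS replicate 2 left out it was -0.98, with an adjusted p of 0.182.

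The ring-modifying enzymes stood on opposite sides. HSD3B7 (ENSSSCG00000032369, chromosome 3, 17459627 to 17463386, minus strand, 2150 bases), the microsomal C27 sterol dehydrogenase that follows 7α-hydroxylation, was at 111.9, 111.4 and 150.8 CPM in the CON libraries (124.7 ± 22.6, SD, n = 3) and at 311.4, 155.9 and 313.0 CPM in the LPS libraries (260.1 ± 90.2, SD, n = 3). All LPS values were above the CON values, but LPS replicate 2 exceeded CON replicate 3 by little. The log2 fold change was 1.06 (SE 0.36, 95% interval 0.25 to 1.87), a level 2.09-fold higher, with an unadjusted p of 0.0151 and an edgeR adjusted p of 0.279. Without LPS replicate 2 it was 1.33 with an adjusted p of 0.0365, and HSD3B7 then passed as higher, as 3.76% of all genes tested in that fit did (512 genes). Leaving out the LPS library nearest to the CON libraries favours such a call.

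AKR1D1 (ENSSSCG00000016519, chromosome 18, 11416068 to 11532728, minus strand, 3049 bases), the 5β-reductase that bends the sterol ring system into its bile acid shape, was at 334.4, 353.9 and 225.2 CPM in the CON libraries (304.5 ± 69.3, SD, n = 3) and at 86.8, 187.5 and 167.7 CPM in the LPS libraries (147.3 ± 53.4, SD, n = 3). The LPS values were all below the CON values, and LPS replicate 1 was the lowest. The log2 fold change was -1.05 (SE 0.38, 95% interval -1.89 to -0.21), a level 2.07-fold lower, with an unadjusted p of 0.0198 and an edgeR adjusted p of 0.307. Without LPS replicate 2 it was -1.25 with an edgeR adjusted p of 0.0905, and DESeq2 without that library gave -1.21 with an adjusted p of 0.0347.

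**Figure D2:**
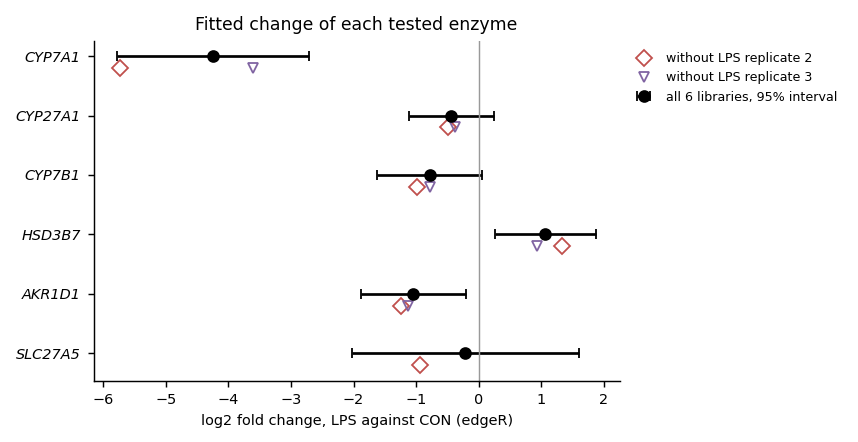
Log2 fold change (LPS against CON, edgeR) of the 6 tested enzymes from all 6 libraries (black, with 95% intervals) and without LPS replicate 2 (red diamonds) or LPS replicate 3 (violet triangles, not drawn for SLC27A5, which was not tested there). CYP7A1 stands at -4.25, at -5.73 without LPS replicate 2 and at -3.60 without LPS replicate 3, and HSD3B7, at 1.06, is the single enzyme above 0.

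Few reads were counted on the conjugating enzymes. SLC27A5 (ENSSSCG00000031449, chromosome 6, 63065829 to 63075204, minus strand, 5384 bases), the bile acyl-CoA ligase, was counted 10, 6 and 14 times in the CON libraries and 6, 10 and 2 times in the LPS libraries. The corresponding levels were 0.894, 0.937 and 1.38 CPM in the CON group and 1.31, 1.64 and 0.137 CPM in the LPS group. The groups overlapped, LPS replicate 3 being the lowest and LPS replicate 2 the highest of the 6 libraries. The log2 fold change was -0.22 (SE 0.81, 95% interval -2.03 to 1.59) with an edgeR adjusted p of 0.939 (-0.93 and 0.594 without LPS replicate 2). With so few reads the interval spanned changes in both directions, so neither a change nor its absence can be read from it. In the deposited annotation 43.2% of the SLC27A5 length (2327 bases) is shared on the same strand with the row labelled ZBTB45, a zinc finger gene, so the assignment of reads between these rows is uncertain. Summing both rows, an alternative chosen after the data were seen, gave a log2 fold change of -0.46 (SE 0.55) with an edgeR adjusted p of 0.768. The ZBTB45 row alone held 149, 136 and 189 reads in the CON libraries and 76, 112 and 51 in the LPS libraries. Its own log2 fold change was -0.49 (SE 0.55). The sum thus mostly follows ZBTB45 and cannot decide how SLC27A5 differed.

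BAAT (ENSSSCG00000035245, chromosome 1, 243065795 to 243084287, minus strand), the acyltransferase that attaches the amino acid, was counted 1, 0 and 0 times in the CON libraries and 0, 1 and 1 times in the LPS libraries. A count of 0 allows up to 3 reads, or 0.469 CPM in CON replicate 2, 0.297 CPM in CON replicate 3 and 0.654 CPM in LPS replicate 1. BAAT was below the filter on low counts and was not tested, and no fold change is given. The deposited BAAT model has a length of 1224 bases, a multiple of 3. Both conjugating enzymes are known as abundant liver transcripts, so the few reads on these rows are not read as their expression levels here, and whether the gene models or the counting bear on them was not tested.

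Compared per length, the levels of the other 5 enzymes formed an order. In the CON libraries, CPM per kilobase of deposited gene length was 121 ± 27.2 for CYP27A1, 99.9 ± 22.7 for AKR1D1, 58.0 ± 10.5 for HSD3B7, 7.92 ± 2.59 for CYP7B1, and 5.13 ± 0.840 for CYP7A1 (mean ± SD, n = 3), while the rows of SLC27A5 and BAAT held 0.199 ± 0.0504 and 0.0243 ± 0.0422. CYP27A1 and AKR1D1 were not separated beyond the spread of the CON libraries, nor were CYP7B1 and CYP7A1. In the LPS libraries HSD3B7 had the highest mean, 121 ± 42.0 CPM per kilobase, beside 88.9 ± 6.38 for CYP27A1 and 48.3 ± 17.5 for AKR1D1. CYP7B1 again stood above CYP7A1. HSD3B7 (72.5 to 145.6) and CYP27A1 (82.7 to 95.4) were not separated beyond the spread of the LPS libraries. In LPS replicate 2, CYP27A1 was above HSD3B7.

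The summed level of the 7 enzymes was 277.3, 292.3 and 305.7 CPM per kilobase in the CON libraries and 265.6, 236.3 and 288.1 in the LPS libraries. The sums of the groups overlapped, while the make-up within the sum differed. HSD3B7 held 18.8%, 17.7% and 22.9% of the sum in the CON libraries and 54.5%, 30.7% and 50.5% in the LPS libraries. AKR1D1 held 39.5%, 39.7% and 24.2% in the CON libraries and 10.7%, 26.0% and 19.1% in the LPS libraries, so LPS replicate 2 overlapped with CON replicate 3. CYP7A1 held 1.69%, 2.09% and 1.51% in the CON libraries and 0.0471%, 0.278% and 0.0272% in the LPS libraries. The share of CYP27A1 overlapped between the groups, at 36.1%, 37.7% and 49.5% in the CON libraries and 33.4%, 40.4% and 28.7% in the LPS libraries.

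**Figure D3:**
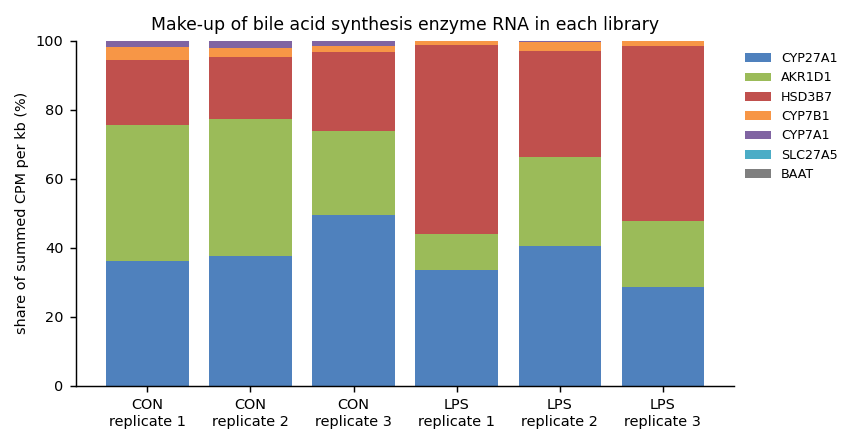
Share (%) of each enzyme in the summed CPM per kilobase of the 7 enzymes, 1 stacked bar per library. The HSD3B7 segment covers 17.7% to 22.9% in the CON libraries and 30.7% to 54.5% in the LPS libraries, with LPS replicate 2 nearest to the CON libraries.

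The balance between enzymes was compared by ratios of counts within a library, which do not depend on how libraries are scaled. With 3 libraries against 3, a two-sided exact permutation test cannot go below 0.1. The log2 ratio of CYP7A1 to CYP27A1, the entry enzymes of the classic and alternative routes, was -4.06, -3.82 and -4.69 in the CON libraries and -8.80, -6.78 and -9.53 in the LPS libraries. All LPS ratios were lower, and the group means differed by -4.18 on the log2 scale, or 18.1-fold (exact permutation p = 0.1, 0.15 adjusted over the 3 ratios). The difference was -4.97 without LPS replicate 2 and -3.26 when 5 in place of 0.5 was added to each count. The log2 ratio of HSD3B7 to AKR1D1, the ring-modifying enzymes, was -1.58, -1.67 and -0.58 in the CON libraries and 1.84, -0.27 and 0.90 in the LPS libraries. All LPS ratios were higher, and the difference was 2.10, or 4.29-fold (exact permutation p = 0.1, 0.15 adjusted), and 2.65 without LPS replicate 2. Within the alternative route, the log2 ratio of CYP7B1 to CYP27A1 was -3.47, -4.04 and -5.04 in the CON libraries and -4.97, -4.26 and -4.38 in the LPS libraries. These values overlapped, with a difference of -0.35 (exact permutation p = 0.5, 0.5 adjusted), and -0.49 without LPS replicate 2. The ratios of CYP8B1 to CYP7A1 and of BAAT to SLC27A5 were not computed, since CYP8B1 was not measured and BAAT lay below the filter on low counts.

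**Figure D4:**
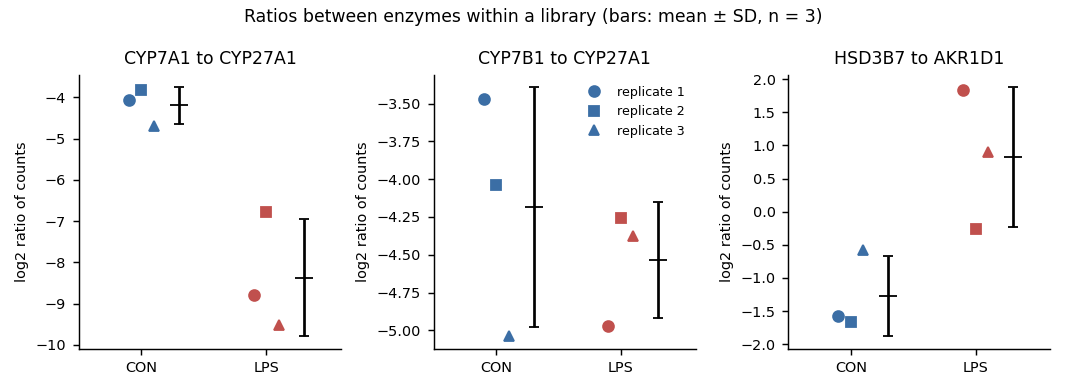
Log2 ratio of counts (with 0.5 added to each count) of CYP7A1 to CYP27A1, CYP7B1 to CYP27A1 and HSD3B7 to AKR1D1 in each library, with group mean and SD (n = 3) as bars, each panel with its own axis that does not start at 0. The CYP7A1 to CYP27A1 ratio is -4.69 to -3.82 in the CON libraries and -9.53 to -6.78 in the LPS libraries, and the CYP7B1 to CYP27A1 ratios of the groups overlap.

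In bulk liver RNA, fewer hepatocytes and less enzyme RNA per hepatocyte cannot be told apart, so each enzyme was also set against hepatocyte markers of the same library. Of the 19 tested markers, 7 had positive and 12 negative log2 fold changes, with a median of -0.21. At an unadjusted p below 0.05, 3 markers were higher (FGB, FGG and ARG1) and 1 was lower (ASGR1), against 6.18% and 6.33% of all tested genes. The reference list thus holds genes that themselves differed between the groups. The number called by edgeR was 0, and DESeq2 called 3 as higher, against 1.85% of all genes. The median log2 CPM of the 19 markers, less its CON mean, was 0.22, -0.00 and -0.22 in the CON libraries and -0.88, -0.40 and 0.05 in the LPS libraries, so it was lowest in LPS replicate 1. Relative to this median, CYP7A1 was lower in the LPS group by a log2 difference of -3.84, AKR1D1 by -0.68 and CYP7B1 by -0.35, HSD3B7 was higher by 1.42, and CYP27A1 differed by -0.01. The exact permutation p was 0.1 for CYP7A1, AKR1D1 and HSD3B7 (0.2 adjusted over the 6 enzymes), 0.2 for CYP7B1 (0.3 adjusted) and 1 for CYP27A1. For SLC27A5 the difference was 0.07, also with an exact permutation p of 1. Leaving out LPS replicate 2 gave -4.55 for CYP7A1, -0.89 for AKR1D1, -0.53 for CYP7B1, 1.75 for HSD3B7, -0.05 for CYP27A1 and -0.36 for SLC27A5, and leaving out LPS replicate 3 gave -3.16 for CYP7A1. The CYP27A1 value changed sign with the libraries used, from -0.24 to 0.28 when libraries were left out in turn. Against the mean of the markers in place of the median, the differences were -4.15 for CYP7A1, -0.99 for AKR1D1, -0.66 for CYP7B1, 1.11 for HSD3B7 and -0.32 for CYP27A1. The size of the smaller differences thus depended on how the markers were summarized.

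Markers of other liver and blood cells were compared in the same libraries. Of 10 neutrophil markers 8 were measured and 6 were tested. Their median log2 fold change was 3.04, and 1 marker (S100A8) was called higher by edgeR, against 0.0548% of all tested genes. S100A8 and LTF, with CON means of 0.355 and 0.419 CPM, passed the filter on low counts through the LPS libraries. This median and this call are therefore a description only. The summed level of the 8 was 15.2 to 26.3 CPM in the CON libraries and 75.3 to 316.1 CPM in the LPS libraries. MMP8, the neutrophil collagenase, was at 0 in all CON libraries. Of the tested neutrophil markers 5 had positive log2 fold changes and 1, ELANE, a negative one (-0.66). MPO, which was not tested, had a mean of 0.977 CPM in the CON group and 0.618 CPM in the LPS group. The 9 tested Kupffer cell or macrophage markers had a median of -0.54, with sums of 1048 to 1645 CPM in the CON libraries and 1353 to 2748 CPM in the LPS libraries. Of these markers 8 had negative log2 fold changes and 1, CD14, a positive one (1.06). CD14 was the largest part of each sum, at 517.8, 818.2 and 821.4 CPM in the CON libraries and 1354, 804.9 and 2328 CPM in the LPS libraries. The 5 tested cholangiocyte markers had a median of 0.91, and their sum was 17.8 to 28.2 CPM in the CON libraries and 35.5 to 67.9 CPM in the LPS libraries. Endothelial and T or NK cell markers, with 5 tested in each list, had medians of -0.44 and -0.20, and sums of 218.2 to 294.8 and 102.3 to 126.0 CPM in the CON libraries against 154.7 to 264.4 and 51.9 to 117.1 CPM in the LPS libraries. The part of these cells in the enzyme values was not tested.

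Further enzymes and transport proteins of the pathway, from a list of 23 genes, had lower values in the LPS group more often than higher ones. Of these 19 were measured and 16 tested, 5 with positive and 11 with negative log2 fold changes and a median of -0.91. At an unadjusted p below 0.05, 6 of the 16 were lower and 1 was higher, against 6.33% and 6.18% of all tested genes. The number called by edgeR was 0 in each direction. DESeq2 called 2 of 17 as lower, against 0.951% of all genes. Without LPS replicate 2, edgeR called 5 of 17 tested as lower (ACOX2, HSD17B6, CYP39A1, SLC27A2 and ABCD3) and 0 as higher. Over all genes tested in that fit, 3.45% were called lower and 3.76% higher. ACOX2, the peroxisomal oxidase of the bile acid side chain, was at 193.7, 227.0 and 175.3 CPM in the CON libraries and 41.2, 118.1 and 39.5 CPM in the LPS libraries. All LPS values of ACOX2 were below the CON values, with a log2 fold change of -1.58 (SE 0.46) and an edgeR adjusted p of 0.221, and of -2.30 with an adjusted p of 0.00521 without LPS replicate 2. HSD17B6, a steroid and retinol dehydrogenase, was at 315.1, 222.9 and 233.1 CPM in the CON libraries and 17.4, 120.6 and 65.0 CPM in the LPS libraries, again without overlap, with a log2 fold change of -1.92 (SE 0.58, edgeR adjusted p 0.237).

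EPHX1, the microsomal epoxide hydrolase, was at 907, 1020 and 1152 CPM in the CON libraries and 314, 517 and 630 CPM in the LPS libraries, a log2 fold change of -1.07 (SE 0.35, edgeR adjusted p 0.266) without overlap of the groups. CYP39A1, the 24-hydroxycholesterol 7α-hydroxylase, was at 13.9, 11.4 and 3.66 CPM in the CON libraries and 1.96, 6.22 and 2.12 CPM in the LPS libraries, with overlap through CON replicate 3 and a log2 fold change of -1.50 (SE 0.61, edgeR adjusted p 0.359). Its adjusted p without LPS replicate 2 was 0.0498, just inside the threshold. AMACR, SCP2, AKR1C4 and CYP4A21 were not paired with an identifier and were not measured.

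The 25 listed regulators of the pathway were all tested and lay on both sides, 15 with positive and 10 with negative log2 fold changes and a median of 0.06. At an unadjusted p below 0.05, 2 of the 25 were higher and 3 were lower, against 6.18% and 6.33% of all tested genes. On all 6 libraries edgeR and DESeq2 called 0 of the regulators. In the 5 libraries other than LPS replicate 2, edgeR called NR5A2 and TRIB1 as higher and NR1H4, NR1I2 and PPARA as lower. Over all genes tested in that fit, 3.76% were called higher and 3.45% lower. NR1H4, the bile acid receptor FXR, was at 62.5, 47.2 and 32.7 CPM in the CON libraries and 18.5, 29.3 and 16.0 CPM in the LPS libraries. All its LPS values were below the CON values, with a log2 fold change of -1.16 (SE 0.37, edgeR adjusted p 0.256), and with an adjusted p of 0.0439 without LPS replicate 2. NR0B2, the SHP repressor that FXR induces, was at 36.9, 23.0 and 30.8 CPM in the CON libraries and 35.3, 45.3 and 52.9 CPM in the LPS libraries, which overlapped, with a log2 fold change of 0.56 (SE 0.31, edgeR adjusted p 0.502).

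NR5A2 (LRH-1) and HNF4A, which activate bile acid enzyme genes, had log2 fold changes of 0.96 (SE 0.50, edgeR adjusted p 0.470) and 0.61 (SE 0.47, edgeR adjusted p 0.637). In NR5A2 the LPS libraries were at 88.7, 33.0 and 161.4 CPM, so LPS replicate 2 lay below the CON libraries (59.3, 43.1 and 43.1 CPM) while the others were above them. FGFR4 and KLB form the hepatic receptor for the intestinal hormone FGF19, which represses CYP7A1. FGFR4 was at 48.9, 58.7 and 43.8 CPM in the CON libraries and 34.0, 43.4 and 12.2 CPM in the LPS libraries, with a log2 fold change of -0.76 (SE 0.44, edgeR adjusted p 0.508), and KLB had -0.28 (SE 0.37, edgeR adjusted p 0.791).

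Among the other regulators, VDR, the vitamin D receptor, was at 0.268, 0.469 and 1.09 CPM in the CON libraries and 2.40, 1.96 and 3.004 CPM in the LPS libraries, a log2 fold change of 1.99 (SE 0.62, edgeR adjusted p 0.253) at a low level. PPARA, the fatty acid receptor, was at 79.6, 67.0 and 75.8 CPM in the CON libraries and 32.3, 57.8 and 27.8 CPM in the LPS libraries, a log2 fold change of -0.92 (SE 0.35, edgeR adjusted p 0.329). For both genes the groups did not overlap. VDR passed the filter on low counts through the LPS libraries, so its difference is a description only. TRIB1, a pseudokinase, was at 32.8, 33.6 and 33.6 CPM in the CON libraries and 84.4, 26.7 and 127.9 CPM in the LPS libraries, with a log2 fold change of 1.26 (SE 0.49, edgeR adjusted p 0.343), and again LPS replicate 2 was on the other side of the CON values.

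**Figure D5:**
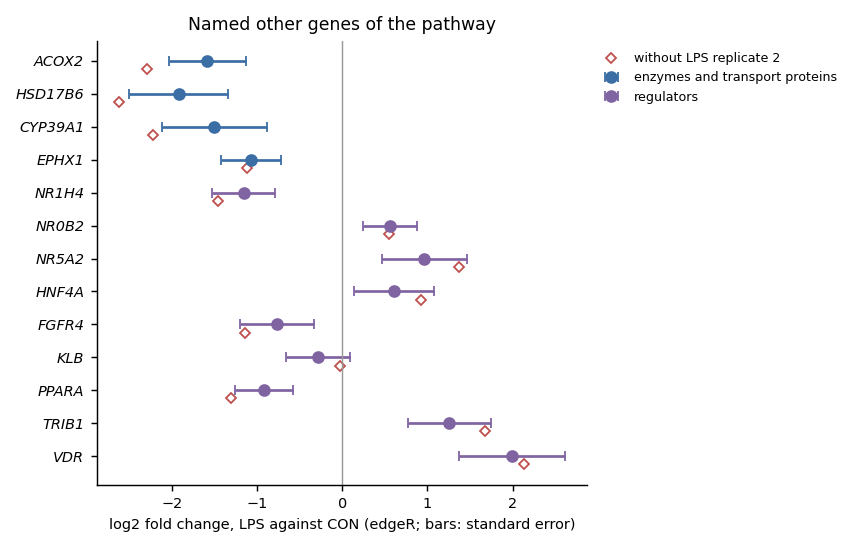
Log2 fold change (LPS against CON, edgeR) of the named enzymes and transport proteins (blue) and regulators (violet) from all 6 libraries, with bars of 1 standard error, and without LPS replicate 2 (red diamonds). ACOX2 (-1.58), HSD17B6 (-1.92) and NR1H4 (-1.16) lie below 0, and VDR (1.99) lies above 0.

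The enzymes also varied relative to each other over the 6 libraries. Pearson's r of log2 CPM, given as a description because the 6 points share their group and depth, was -0.94 between CYP7A1 and HSD3B7, 0.85 between CYP7A1 and AKR1D1, 0.94 between CYP7B1 and AKR1D1, and -0.89 between HSD3B7 and AKR1D1. Averaged over the 6 tested enzymes after centring each on its mean, log2 CPM was 0.48, 0.51 and 0.48 in the CON libraries and -0.61, -0.07 and -0.80 in the LPS libraries, so LPS replicate 2 lay between the other LPS libraries and the CON libraries. The enzymes were not scaled to a common spread, so this average mostly followed CYP7A1. In log2 CPM less the CON mean, CYP7A1 was at -4.76, -2.83 and -5.17 in the LPS libraries, while HSD3B7 was at 1.33, 0.34 and 1.34. SLC27A5, whose few reads are not read as its level, was also part of the average. Among the 3283 genes with a symbol and a mean log2 CPM of at least 5, those most like this average were ACAD9 (r = 0.996), XDH (0.995), DPYS (0.986), ACOX2 (0.986) and UPB1 (0.985). ACAD9 is a mitochondrial flavoprotein, XDH oxidizes purines, and DPYS and UPB1 degrade pyrimidines. All of them were lower in every LPS library, which follows largely from their choice by this average. UPB1 was at 128.2, 162.3 and 193.7 CPM in the CON libraries and 29.4, 53.3 and 20.6 CPM in the LPS libraries, with a log2 fold change of -2.23 (SE 0.41). The edgeR adjusted p-values of the 5 genes ran from 0.0933 (UPB1) to 0.333 (ACAD9), and the same choice limits them. When LPS replicate 2 was left out, 2 of these 5 genes remained among the 5 most alike.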

How the data were processed

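The authors deposited whole-number read counts per Ensembl pig gene, not normalized, with gene coordinates and length. The submitters' processing notes name cutadapt 1.9.3 and HISAT2. The genome builds listed there are not of pig, and the pig build, counting program and strand setting were not named in the sources used here. The deposited columns were matched to libraries by the group and replicate in their names, and 0 sample columns were left unmapped. CON replicates 1 and 2 have several sequencing entries each and 1 column each. The m6A immunoprecipitated libraries were not analysed here. A table of gene names paired 15029 of the 31908 identifiers with a symbol.

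The counts were fitted with edgeR 4.0.16 under R 4.3.3 (filterByExpr with a minimum count of 10, TMM scaling, robust dispersions, glmQLFit and glmQLFTest, no covariate). The biological coefficient of variation was 0.397. Log2 CPM used a prior count of 2. Calls required a Benjamini-Hochberg adjusted p below 0.05 together with a change of over 1.5-fold. The fit was tested on simulated data with large changes only and without an LPS library lying near the CON libraries. That test does not cover changes as small as those of most enzymes here. Ratios and values relative to hepatocyte markers were compared with a two-sided exact permutation test over the 6 libraries in SciPy 1.17.1. Alternatives were other tests (DESeq2 1.42.0, voom of limma 3.58.1 and the likelihood ratio test), other scalings (RLE factors and library totals), other filters (none, or 10 counts in every library), a block for the replicate number, each library left out in turn, DESeq2 without LPS replicate 2, and other fold thresholds. The ratios were also computed with 5 added to each count, and the hepatocyte comparison with the mean of the markers. Genes named beyond the enzymes were up to 4 of each pathway list with the smallest unadjusted p, a fixed set of receptors and enzymes, and the 5 genes most like the average of the enzymes. The enzymes and gene lists were chosen with earlier results of these data known. The labels do not say whether libraries with the same replicate number belong together. No promoter or protein sequences were used here. The values of some single genes that the naming rule selects are not reported here.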

Additional observations from a re-analysis of the deposited data

How the results depend on the processing

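No log2 fold change of an enzyme changed sign in the alternatives that gave it a value. CYP7A1 passed the threshold in 7 of 14 alternatives, at -4.28 with no filter on low counts (edgeR adjusted p 7.89e-13), -4.21 with DESeq2, -4.22 with the likelihood ratio test (5.22e-07), -4.54 with the replicate block, and -5.76 in DESeq2 without LPS replicate 2 (6.41e-12). Its adjusted p was 0.0679 with RLE factors, 0.0756 with library totals and 0.0595 with limma-voom, and requiring 10 counts in every library removed it. DESeq2 without LPS replicate 2 also called HSD3B7 (1.36, adjusted p 0.00326) and AKR1D1 (-1.21). Leaving out each library in turn gave log2 fold changes of -5.73 to -3.60 for CYP7A1, 0.92 to 1.33 for HSD3B7, -1.25 to -0.77 for AKR1D1, -0.98 to -0.52 for CYP7B1, and -0.56 to -0.22 for CYP27A1. SLC27A5, with -0.93 to -0.27, was tested only without CON replicate 2, LPS replicate 1 or LPS replicate 2.

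Genes called higher and lower were 7 and 0 in the reported fit, 8 and 1 with RLE factors, 11 and 1 with library totals, 536 and 349 with no filter, 0 and 0 with 10 counts in every library, 275 and 141 with DESeq2, 2 and 0 with limma-voom, 203 and 152 with the likelihood ratio test, and 791 and 752 in DESeq2 without LPS replicate 2. Leaving out each library in turn gave 0 to 512 higher and 0 to 470 lower, the highest without LPS replicate 2. The cause was not tested. LPS replicate 2 was picked from these data as nearest to the CON libraries, so the counts without it are a description only. Library totals moved the median log2 fold change of all genes from 0.01 to -0.12. Other enzymes called lower were 0 in the reported fit, 5 with no filter, 2 with DESeq2, 6 in DESeq2 without LPS replicate 2, and 0 to 5 with libraries left out. Regulators called higher were 0, 2 with no filter, 4 in DESeq2 without LPS replicate 2, and 0 to 2 with libraries left out. Regulators called lower were 0, 1 with no filter, 3 in DESeq2 without LPS replicate 2, and 0 to 3 with libraries left out.

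Values with overlapping groups changed sign in some alternatives. The CYP7B1 to CYP27A1 log2 ratio ranged from -0.78 to 0.00 (0.00406 without CON replicate 1). Relative to hepatocyte markers, CYP27A1 ranged from -0.24 to 0.28 with libraries left out (0.28 without CON replicate 3, 0.27 without LPS replicate 3). It was -0.32 against the mean of the markers. SLC27A5 ranged from -0.46 to 1.04 with libraries left out (-0.13 without CON replicate 1, -0.46 without LPS replicate 1, -0.36 without LPS replicate 2) and was -0.24 against the mean of the markers.

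Whether the replicate numbers pair the libraries could not be settled. Deviations from the group means correlated at -0.24, 0.22 and 0.03 between libraries with the same number. Between libraries with different numbers they reached 0.22 (CON replicate 1 with LPS replicate 3). With 3 libraries per group such values cannot decide it. With the replicate block, 42 genes were called higher and 9 lower, against 7 and 0 without it. SLC27A5 and BAAT had 2 and 1 reads even in the deepest library, LPS replicate 3, and the LPS values of CYP7A1 rest on 20 reads in all against 481 in the CON libraries, a ratio of 22.0 (exact 95% interval 14.1 to 36.3, counting error only) after scaling to the TMM-adjusted library sizes.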

Other observations

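The genes that start next to the enzymes on the opposite strand were looked at after their values were seen. The row nearest to CYP7B1 (ENSSSCG00000045879, no symbol, chromosome 4, 69426785 to 69616011) ends 24 bases before the start of CYP7B1. It was at 16.8, 11.6 and 10.6 CPM in the CON libraries and 1.96, 10.1 and 2.25 CPM in the LPS libraries, all below the CON values, with a log2 fold change of -1.45 (SE 0.60, unadjusted p 0.0374, edgeR adjusted p 0.367). SDCBP, which encodes the adaptor protein syntenin, lies 1771 bases from CYP7A1. It was at 42.0, 27.0 and 30.3 CPM in the CON libraries and 27.0, 28.6 and 76.7 CPM in the LPS libraries, with a log2 fold change of 0.42 (SE 0.44, edgeR adjusted p 0.737), so the groups overlapped where those of CYP7A1 did not. CREB3L2, a transcription factor gene that lies 455 bases from AKR1D1, had a log2 fold change of -0.15 (SE 0.33, edgeR adjusted p 0.892).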
